A study of Homo sapiens with 6 samples.

Results

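The urokinase plasminogen activator system was followed here through PLAU, PLAUR, PLAT and SERPINE2, 4 genes chosen by symbol with their fold changes in both comparisons already known. Of these 4 genes, 3 had a row among the 11679 genes of the tables. PLAT, tissue plasminogen activator, is not analysed here. RNA came from the 786-O line, established from a human clear cell carcinoma of the kidney, and the study asked what the loss of ALYREF, an adaptor in messenger RNA export, does to the transcriptome. The groups were ALYREF siRNA5, ALYREF siRNA8 and a non-targeting control siRNA (NTC), with 2 libraries each. Cells of all 3 groups came from this single line, grew in RPMI with 10% FBS, received a siRNA with DharmaFECT 1, were moved to fresh medium at 24 h and were harvested at 48 h. Both knockdowns were compared with the same 2 control libraries.

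Urokinase, the product of PLAU, is a secreted serine protease that cuts plasminogen into plasmin, a broad protease that dissolves fibrin and digests matrix. The urokinase receptor, encoded by PLAUR, is a lipid-anchored surface protein that holds the enzyme at the cell edge. Inhibitors of the serpin family end the reaction, among them the product of SERPINE2, protease nexin-1, which inhibits urokinase, plasmin and thrombin. In renal carcinoma and other tumours the system is known for its part in invasion.

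The promoters of PLAU and PLAUR are shown because these genes were the members that moved. Each window covers 250 bases before and 50 bases after a transcript start from RefSeq on GRCh38.p14, with motif matches in capitals. The PLAU window lies at chr10:73910882-73911181 on the plus strand and the PLAUR window at chr19:43670120-43670419 on the minus strand.
PLAU: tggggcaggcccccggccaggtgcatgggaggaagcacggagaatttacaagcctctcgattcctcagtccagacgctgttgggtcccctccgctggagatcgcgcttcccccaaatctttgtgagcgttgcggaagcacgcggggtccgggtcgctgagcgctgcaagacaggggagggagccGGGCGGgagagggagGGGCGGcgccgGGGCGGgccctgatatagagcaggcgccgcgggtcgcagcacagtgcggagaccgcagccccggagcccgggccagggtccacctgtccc
PLAUR: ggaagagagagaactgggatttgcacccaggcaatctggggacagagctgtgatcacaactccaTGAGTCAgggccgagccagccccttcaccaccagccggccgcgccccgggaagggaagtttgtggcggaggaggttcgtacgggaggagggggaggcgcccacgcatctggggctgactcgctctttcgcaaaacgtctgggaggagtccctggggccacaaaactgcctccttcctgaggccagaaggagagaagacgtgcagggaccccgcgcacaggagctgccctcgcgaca

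The windows were searched on both strands for TGANTCA as the AP-1 motif, TGACGTCA as the CRE, GGGCGG for Sp1, CCGGAAG for ETS factors, CACGTG as an E-box, TATAAA and CCAAT. No matches of different motifs overlapped in the windows shown. The PLAU window held GGGCGG at 3 places, beginning 66, 51 and 40 bases before the start, and GGGCGG occurred in 66.6% of the 13316 windows of measured genes. The PLAUR window held TGAGTCA, a match to TGANTCA, beginning 186 bases before the start, and 5.22% of the windows held such a match. No other motif of the search matched in either window. RefSeq gives PLAU another start upstream, whose window held 1 CCAAT and no other match. SERPINE2 has a pair of windows on chromosome 2: one held 2 matches to GGGCGG, and the other held 7 to CCAAT, 1 to GGGCGG and 1 to CACGTG. GC content was 70.0% in the PLAU window shown and 64.0% in the PLAUR window, against a median of 65.0% over all windows.

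Both siRNAs lowered their target. ALYREF fell by 4.14 with siRNA5 (SE 0.096) and fell by 3.67 with siRNA8 (SE 0.085), as log2 fold changes against NTC in the authors' deposited tables. The tables hold 1 mean normalized count per gene over the libraries and a log2 fold change for each siRNA, with no depth and no value per library. The level in each group was therefore rebuilt from the mean and both fold changes, on the assumption that the mean covers 3 groups of equal size. Across 7302 genes, which are not independent replicates, differences between the squared standard errors of both comparisons followed those computed from the rebuilt levels with a slope of 1.15 (Pearson's r = 0.946). General markers of renal carcinoma lines, not specific to 786-O, were looked up: 8 of 10 had a row, and CA9 and NDUFA4L2 had none. In the authors' deposited tables, mean normalized counts ran from 114 for HIF1A to 53093 for VIM, with PAX8 at 2354. These rows alone do not establish the identity of the line. Of 8 immune markers, CD68 and CSF1R had a row, and their summed rebuilt level was 215 with siRNA5, 293 with siRNA8 and 282 with NTC. None of 6 endothelial markers had a row, and 2 of 6 fibroblast markers did, with summed levels of 65.8, 70.3 and 72.9 in the same order. Urokinase and its receptor are also made by myeloid cells, and the part of these markers in the results was not tested. In bulk RNA, a change in the share of cells that make a transcript and a change of RNA per cell cannot be told apart.

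PLAU, the protease of the system, stood highest above the control among the members. Its rebuilt level was 2456 normalized counts with siRNA5 and 1666 with siRNA8, against 718 with NTC. Urokinase transcript was thus higher in both knockdowns than in the control, and higher with siRNA5 than with siRNA8. In the authors' deposited table for siRNA5 the log2 fold change was 1.77 (SE 0.069), or 3.42-fold with a 95% interval of 3.11 to 3.76. With siRNA8 it was 1.21 (SE 0.070), or 2.32-fold with an interval of 2.11 to 2.55, in the authors' deposited table. Only 20 of all measured genes had a larger log2 fold change with siRNA5, and 113 had a larger one with siRNA8.

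PLAUR, the receptor, was higher as well, by a smaller factor. Its rebuilt level was 1651 normalized counts with siRNA5 and 1397 with siRNA8, against 900 with NTC. In the authors' deposited tables PLAUR had a log2 fold change of 0.88 with siRNA5 (SE 0.11), which is 1.84-fold with a 95% interval of 1.59 to 2.12. With siRNA8 it was 0.63 (SE 0.11), or 1.55-fold with an interval of 1.34 to 1.80, in the authors' deposited table. For PLAUR, 326 genes had a larger log2 fold change with siRNA5 and 581 with siRNA8. By its fitted standard error with siRNA5, PLAUR had more spread than most genes of its abundance. With no values per library, this spread comes from the authors' fit and was not observed directly. The spread beyond counting error, rebuilt from the deposited standard error, was 6.82%, larger than in 98.5% of the 1253 genes within 1.25-fold of its mean, whose median was 3.88%. For PLAU this spread was 3.73% beside a median of 3.68% over 1031 genes, and for SERPINE2 it was 4.44% beside 4.16%.

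SERPINE2, the inhibitor among the members, stayed near its control level. Its rebuilt level was 1082 normalized counts with siRNA5 and 1034 with siRNA8, against 1047 with NTC. Log2 fold changes of 0.05 with siRNA5 (SE 0.078) and -0.02 with siRNA8 (SE 0.078) stand in the authors' deposited tables. The 95% intervals ran from 0.929-fold to 1.15-fold with siRNA5 and from 0.888-fold to 1.10-fold with siRNA8, so changes of the size seen for PLAU or PLAUR lie outside them. The adjusted p-values listed by the authors' DESeq2 fit were 0.661 and 0.871 for SERPINE2 in their deposited tables.

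PLAU and PLAUR, 2 of the 3 measured members, were listed as higher at an adjusted p under 0.05 with siRNA5 in the authors' deposited table, where 24.4% of all genes were higher and 46.4% were called in either direction. The same 2 genes were listed as higher with siRNA8 in the authors' deposited table, where 21.0% of all genes were higher and 41.5% were called in either direction. Because these genes were chosen from these very comparisons, the counts describe the choice and no test is drawn from them. PLAU was listed with an adjusted p of 6.27e-142 and 5.23e-65 by the authors' DESeq2 fit, and PLAUR with 5.61e-15 and 3.67e-08, for siRNA5 and siRNA8 in that order in the deposited tables.

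**Figure D1:**
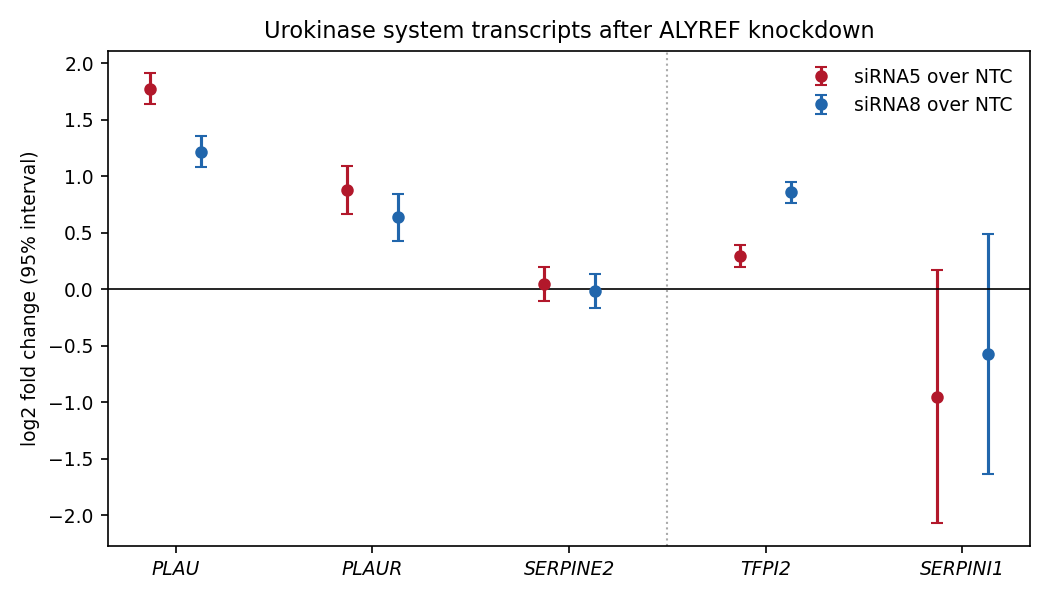
Log2 fold changes with 95% intervals for the 3 measured members, left of the dotted line, and for 2 other genes of the plasminogen system, in siRNA5 (red) and siRNA8 (blue) over NTC. PLAU lies at 1.77 and 1.21, PLAUR at 0.88 and 0.63 and SERPINE2 at 0.05 and -0.02, and the intervals of SERPINE2 include 0.

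The siRNAs were also compared directly, through the difference of their log2 fold changes, siRNA5 minus siRNA8. The members were chosen with both fold changes known, so these differences and their p-values are a description and support nothing further. For PLAU the difference was 0.56 (SE 0.098, 95% interval 0.37 to 0.75), with an adjusted p of 1.69e-07 over all genes from the authors' DESeq2 values. For PLAUR it was 0.24 (SE 0.15, interval -0.06 to 0.54, adjusted p = 0.231 over all genes from the DESeq2 values), which does not show that both siRNAs act alike on it. For SERPINE2 it was 0.07 (SE 0.11, interval -0.15 to 0.28, adjusted p = 0.710 from the DESeq2 values). One of 3 members was thus called, where 32.0% of all genes were. The standard error leaves out the covariance from the shared control and is an upper bound. With the control variance rebuilt from the tables and subtracted, the difference of PLAUR had an adjusted p of 0.0448 over all genes from the DESeq2 values, so 2 of 3 members were called, where 48.3% of all genes were.

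PLAU changed relative to the other members of the system. Its log2 fold change exceeded that of PLAUR by 0.90 with siRNA5 (SE 0.13) and by 0.58 with siRNA8 (SE 0.13), and that of SERPINE2 by 1.73 (SE 0.10) and 1.23 (SE 0.10). These standard errors treat the genes of each pair as independent.

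Levels of different transcripts were compared per kilobase of the principal transcript in GENCODE 29. The counts came from hg19 with gene models that the sources used here do not give, so these lengths may not match the counted exons. With siRNA5 the rebuilt level was 1067 normalized counts per kb for PLAUR, 1058 for PLAU and 493 for SERPINE2. With siRNA8 it was 902 for PLAUR, 718 for PLAU and 471 for SERPINE2. In NTC cells it was 581 for PLAUR, 477 for SERPINE2 and 309 for PLAU. SERPINE2 was thus the lowest member per kb with either ALYREF siRNA, and PLAU the lowest in NTC. The tables carry no error for a level in a single group, so neighbours in these orders were not tested against each other.

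**Figure D2:**
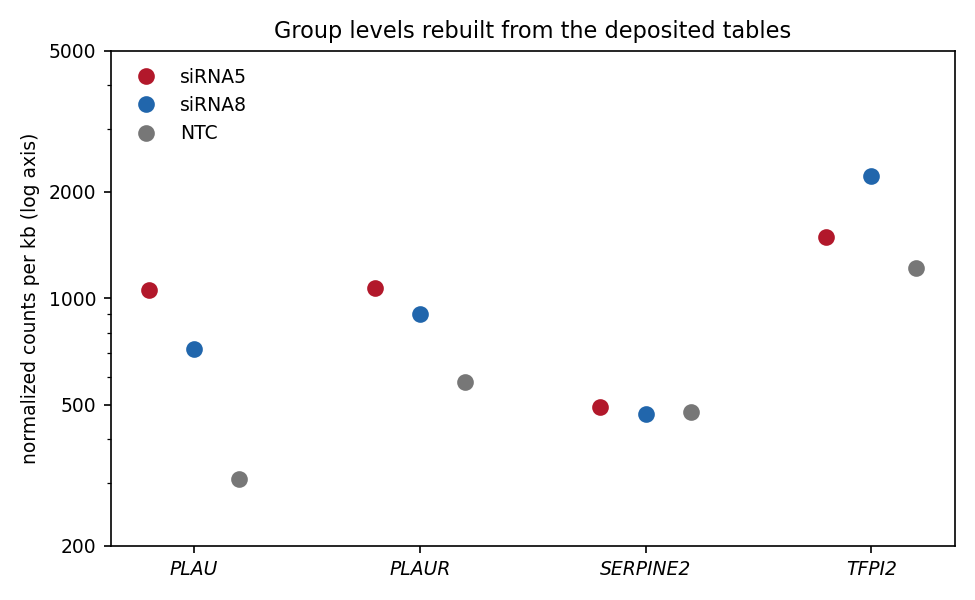
Rebuilt group levels in normalized counts per kb, on a log axis, for the 3 measured members and the inhibitor gene TFPI2 in siRNA5, siRNA8 and NTC cells. PLAU reads 1058, 718 and 309 per kb, PLAUR 1067, 902 and 581, and the 3 points of SERPINE2 lie between 471 and 493.

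The transcripts of the members were compared with the 10928 measured genes that have a protein-coding model in GENCODE 29 on GRCh38. The principal PLAU transcript lies on chromosome 10 from 73911157 to 73917497, on the plus strand, with 11 exons and 2321 nt. That of PLAUR lies on chromosome 19 from 43648580 to 43670350, on the minus strand, with 7 exons and 1548 nt. That of SERPINE2 lies on chromosome 2 from 223975112 to 224039319, on the minus strand, with 9 exons and 2195 nt. All 3 were shorter than the median transcript of 3303 nt, and the median number of exons was 9. Their GC content was 52.6%, 57.3% and 46.5% for PLAU, PLAUR and SERPINE2, beside a median of 48.2%.

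AU-rich pentamers in the 3′ UTR are the elements through which proteins such as ZFP36 and ELAVL1 are known to act on urokinase and urokinase receptor transcripts, so their richest 30 bases are shown, with ATTTA in capitals. The 3′ UTR is 932 nt long in PLAU and 310 nt in PLAUR, and the windows begin at its bases 852 and 260.
PLAU: aatATTTAtatttcactatttttATTTAta
PLAUR: taatattcatattATTTAttttatacttac

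PLAU held 2 copies of ATTTA, PLAUR 1 and SERPINE2 2 in a 3′ UTR of 755 nt, while 71.5% of genes held at least 1. The longer TTATTTA occurred once in PLAU and once in PLAUR, where it lies in the windows shown, and 0 times in SERPINE2. It occurred in 31.8% of genes.

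PLAU overlaps another gene in the annotation. C10orf55, on the minus strand, covers PLAU over most of its length in GENCODE 29, and it had no row in the tables. The libraries are directional, but the sources used here do not give the strand setting of the counting, so reads of C10orf55 and PLAU may not be fully separated. In the authors' deposited tables, reads that the counting left as ambiguous, pooled over all genes, had log2 fold changes of -0.01 with siRNA5 and 0.01 with siRNA8. This pooled value cannot show what happened to ambiguous reads at PLAU. The nearest protein-coding neighbours that do not overlap PLAU are CAMK2G, a calcium-dependent kinase, and VCL, which encodes vinculin. By the authors' deposited tables, CAMK2G had log2 fold changes of 0.02 with siRNA5 (SE 0.077) and -0.56 with siRNA8 (SE 0.081), and VCL had -0.14 (SE 0.043) and 0.29 (SE 0.043). By the authors' deposited tables, MRPL44, next to SERPINE2, had 0.16 with siRNA5 (SE 0.10) and -0.01 with siRNA8 (SE 0.10). The neighbours CADM4, IRGC and FAM124B had no row.

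Among the 5839 genes with a mean above the median, those whose pair of fold changes lay nearest to PLAU were DCP2, a decapping enzyme, CSGALNACT2, an enzyme of chondroitin sulfate synthesis, and SLC4A7, a bicarbonate transporter. Their distances were 0.33, 0.35 and 0.40 on the log2 scale over 2 comparisons, and DCP2, the closest, is listed at 1.59 for siRNA5 and 0.95 for siRNA8 by the authors' deposited tables. The nearest to PLAUR were EPB41L4B, SRPRA and CD83, at distances of 0.016, 0.055 and 0.093. For SERPINE2 they were SLMAP, RPS24 and RAB22A, all within 0.0070. With 2 values per gene that share their controls, such a likeness is a description only.

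**Figure D3:**
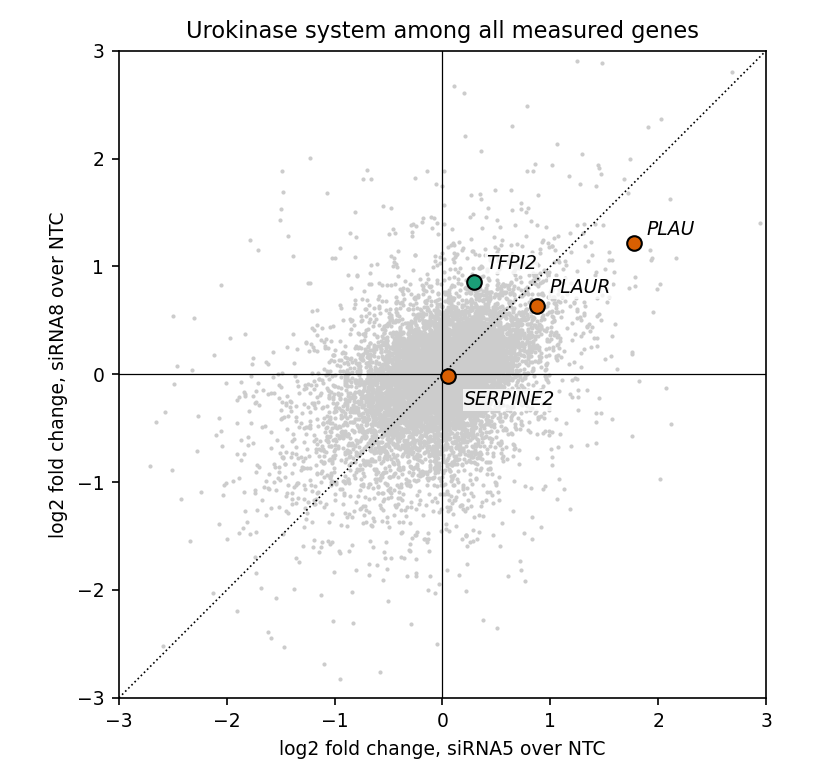
Log2 fold change with siRNA8 over NTC against that with siRNA5 over NTC for 11669 genes (grey; 10 genes lie beyond the axes), with measured members in orange and TFPI2 in green. PLAU lies at 1.77 and 1.21 in the sparse upper right, PLAUR below it at 0.88 and 0.63, and SERPINE2 near the origin. Both axes share their control libraries.

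The wider system was followed through 7 gene lists, of which 59 of 77 genes had a row and the others are not analysed here. Without the members, siRNA5 raised 18 of 56 genes and lowered 9, with 29 not called, beside 24.4% higher and 22.0% lower among all genes in the authors' deposited table. With siRNA8, 26 were higher, 10 lower and 20 not called, beside 21.0% higher and 20.5% lower. The median log2 fold change of these 56 genes was 0.05 and 0.11, against 0.01 and 0.01 for all genes. The called genes made up 48.2% of the 56 with siRNA5 and 64.3% with siRNA8, where 46.4% and 41.5% of all genes were called.

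Of 11 genes for activators, receptor, inhibitors and plasmin, 6 had a row, and 3 of these were higher with siRNA5 and 4 with siRNA8, with 0 lower. Called genes were thus 50.0% and 66.7%, beside 46.4% and 41.5% of all genes. Without the members, 1 and 2 of 3 genes were higher. The median log2 fold change of these 3 was -0.95 with siRNA5, below 0 although the called gene rose, and 0.86 with siRNA8. TFPI2, a Kunitz-type inhibitor of plasmin, had 3650 normalized counts with siRNA5 and 5406 with siRNA8, against 2985 with NTC. It rose by 0.29 with siRNA5 (SE 0.049) and 0.86 with siRNA8 (SE 0.048) in the authors' deposited tables, so that siRNA8 had the larger change here. SERPINB2, which encodes the inhibitor PAI-2, was barely detected, with a mean of 16.5 normalized counts. Its rebuilt level was 0.476 with siRNA5 and 47.6 with siRNA8, against 1.34 with NTC. With siRNA5 its log2 fold change was -1.49 (SE 1.70, adjusted p = 0.504 from DESeq2) in the authors' deposited table. That with siRNA8 in the authors' deposited table was 5.16 (SE 0.93), a fitted value over a group near 0 and no measure of size. Its row rests on siRNA8, the only group where it is high, so its call, counted in the list, supports nothing. SERPINI1, encoding the inhibitor neuroserpin, had a mean of 15.8 and log2 fold changes of -0.95 with siRNA5 (SE 0.57) and -0.57 with siRNA8 (SE 0.54) by the authors' deposited tables, neither called.

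Proteases that cut single-chain urokinase into its active form were 3 of 6 listed genes with a row. CTSL, the lysosomal protease cathepsin L, rose by 0.48 with siRNA5 (SE 0.060) and 0.50 with siRNA8 (SE 0.060) in the authors' deposited tables. CTSB, cathepsin B, had a log2 fold change of -0.10 with siRNA5 (SE 0.059), not called, and rose by 0.18 with siRNA8 (SE 0.058) in the authors' deposited tables. As the authors' deposited tables list it, F12, coagulation factor XII, had 0.00 with siRNA5 (SE 0.20) and -0.41 with siRNA8 (SE 0.21), neither called. Thus 1 of the 3 measured genes rose with siRNA5 and 2 with siRNA8, and none fell. These are 33.3% and 66.7% called, beside 46.4% and 41.5% of all genes. The median log2 fold change was 0.0027 with siRNA5 and 0.18 with siRNA8, against 0.01 for all genes in either comparison.

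Plasminogen receptors, which dock plasminogen at the cell surface, went in different directions. Of 5 genes, 0 rose and 2 fell with siRNA5, while 2 rose and 1 fell with siRNA8, and the medians were -0.09 and 0.11. The called share was 40.0% and 60.0%, beside 46.4% and 41.5% of all genes. The plasminogen receptor gene PLGRKT had a log2 fold change of 0.10 with siRNA5 (SE 0.12), not called, and rose by 0.71 with siRNA8 (SE 0.11) in the authors' deposited tables. KRT8, a keratin that also binds plasminogen, fell by 0.55 with siRNA5 (SE 0.049) and rose by 0.33 with siRNA8 (SE 0.047) in the authors' deposited tables. S100A10, the plasminogen-binding partner of annexin A2, fell by 0.16 with siRNA5 (SE 0.053) in the authors' deposited table, and its value with siRNA8 was 0.11 (SE 0.052).

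Of 13 measured receptor partners and clearance receptors, 7 rose and 3 fell with siRNA5, and 7 rose and 2 fell with siRNA8, with medians of 0.10 and 0.21. Calls thus covered 76.9% and 69.2% of this list, beside 46.4% and 41.5% of all genes. MRC2, which encodes the collagen receptor known as uPARAP because it associates with the urokinase receptor, fell by 0.63 with siRNA5 (SE 0.079) and fell by 0.54 with siRNA8 (SE 0.078) in the authors' deposited tables. MRC2 was the only gene of this list called lower with both siRNAs. Values in the authors' deposited tables show that IGF2R, a lysosomal sorting receptor that binds the urokinase receptor, rose by 0.31 with siRNA5 (SE 0.050) and 0.34 with siRNA8 (SE 0.050). ITGB5, an integrin subunit of a vitronectin receptor, rose by 0.27 with siRNA5 (SE 0.047) and 0.76 with siRNA8 (SE 0.046) in the authors' deposited tables. As the authors' deposited tables list it, LRP1, the endocytic receptor that clears urokinase bound to its inhibitors, had log2 fold changes of -0.31 with siRNA5 (SE 0.15) and -0.24 with siRNA8 (SE 0.14), neither called. VLDLR, of the same list, rose by 0.31 with siRNA5 (SE 0.091) and fell by 0.39 with siRNA8 (SE 0.096) in the authors' deposited tables.

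Downstream of plasmin, 11 measured genes for metalloproteases, their inhibitors and growth factors were mixed. With siRNA5, 4 rose and 1 fell around a median of 0.23, and with siRNA8, 4 rose and 4 fell around a median of -0.03. Called genes made up 45.5% and 72.7%, beside 46.4% and 41.5% of all genes. MMP2, a gelatinase, fell by 1.18 with siRNA5 (SE 0.10) and fell by 0.32 with siRNA8 (SE 0.091) in the authors' deposited tables. By the authors' deposited tables, LTBP1, which holds latent TGF-beta in the matrix, rose by 1.18 with siRNA5 (SE 0.27) and 1.84 with siRNA8 (SE 0.27) at a low mean of 70.2 normalized counts. MMP13, a collagenase with a mean of 85.0, had a log2 fold change of -0.54 with siRNA5 (SE 0.25), not called, and fell by 1.65 with siRNA8 (SE 0.29) in the authors' deposited tables. At higher means, TGFB1 rose by 0.44 with siRNA5 (SE 0.068) and fell by 0.87 with siRNA8 (SE 0.073) in the authors' deposited tables. FN1 rose by 0.26 with siRNA5 (SE 0.080) and 1.26 with siRNA8 (SE 0.080) there.

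Regulators known to act on urokinase genes were examined last. Of 13 measured AP-1, ETS and NF-kB factors, 3 rose and 2 fell with siRNA5, and 4 rose and 2 fell with siRNA8, with medians of 0.02 and 0.03. Their called share, 38.5% and 46.2%, lay near that of all genes, 46.4% and 41.5%. In the authors' deposited tables JUND, an AP-1 subunit, fell by 1.12 with siRNA5 (SE 0.16) and fell by 0.70 with siRNA8 (SE 0.15). JUND was the only factor called lower with both siRNAs, and 3 were called higher with both. Of these, JUN rose by 0.21 with either siRNA (SE 0.058) in the authors' deposited tables. FOSL2 rose by 0.26 with siRNA5 (SE 0.053) and 0.30 with siRNA8 (SE 0.052), and ETV5 by 0.52 (SE 0.11) and 0.84 (SE 0.11) there. ETV4, an ETS factor with a mean of 50.9, had -0.60 with siRNA5 (SE 0.31), not called, and fell by 1.05 with siRNA8 (SE 0.32) in the authors' deposited tables. By the authors' deposited tables, FOSB, another AP-1 subunit with a mean of 13.0, had log2 fold changes of -1.71 with siRNA5 (SE 0.77) and 1.15 with siRNA8 (SE 0.54), neither called. Of 8 genes for RNA-binding proteins, 2 rose and 1 fell with siRNA5, and 5 rose and 1 fell with siRNA8, with medians of 0.07 and 0.13. Called genes were thus 3 of 8 with siRNA5 and 6 of 8 with siRNA8, beside 46.4% and 41.5% of all genes. ZFP36, which promotes decay of AU-rich transcripts, had 0.48 with siRNA5 (SE 0.22), not called, and rose by 0.60 with siRNA8 (SE 0.22) in the authors' deposited tables. Its relative ZFP36L1 fell by 0.29 with siRNA5 (SE 0.055) and rose by 0.31 with siRNA8 (SE 0.054), and ZFP36L2 rose by 0.84 with siRNA5 (SE 0.11) and had 0.06 with siRNA8 (SE 0.11), in the authors' deposited tables. ELAVL1 had 0.08 with siRNA5 (SE 0.052) and 0.03 with siRNA8 (SE 0.052) there, neither called.

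**Figure D4:**
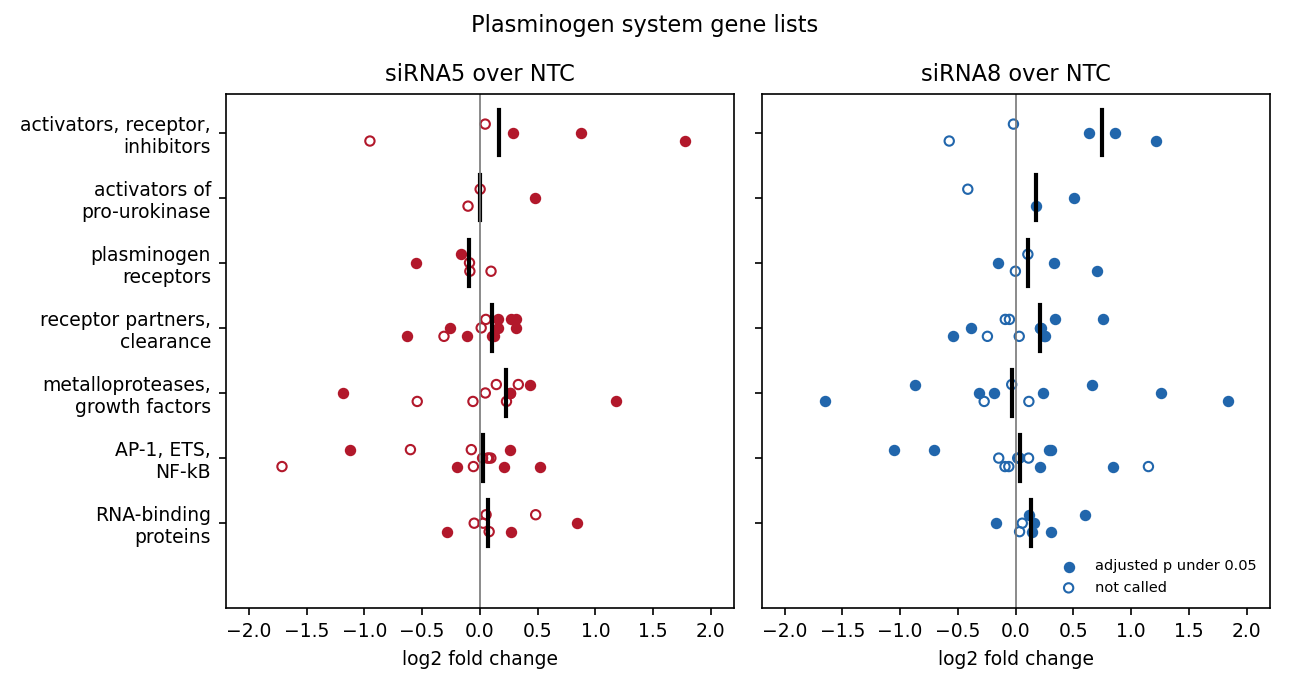
Log2 fold changes of the measured genes of each list with siRNA5 (left) and siRNA8 (right) over NTC. Filled points have an adjusted p under 0.05 in the authors' deposited tables, black bars are list medians, and SERPINB2 counts in its median but is not drawn because its value with siRNA8, 5.16, lies beyond the axis. The list of activators, receptor and inhibitors has medians of 0.17 and 0.75.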

How the data were processed

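Polyadenylated RNA of 6 libraries was sequenced as directional paired reads of 42 nt, per the labels' protocols. The submitters' processing notes name STAR, Picard, HTSeq, DESeq2 and the build hg19, and give no versions or settings. The files are 2 tables of 11681 rows, 11679 of them genes. Per the file headers, the signal per gene is a mean normalized count, the deposited fold changes and standard errors are log2 values, and the deposited score is a Wald statistic. The authors' deposited p-values are two-sided, and recomputation from them gave their adjusted p-values. Reads without a feature were 6.23% and ambiguous reads 1.62% of the sum of means. Depth per library is unknown, and the sources used here do not say whether fold changes were shrunk. Direction was read from ALYREF, and each table was tied to its siRNA by the number in its name.

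Computed here, with Python 3.11.15, numpy 2.4.6, pandas 2.3.3 and scipy 1.17.1, were rebuilt group levels, 95% normal intervals and a normal test, two-sided, of the fold change difference between siRNAs from both standard errors, with Benjamini-Hochberg adjustment over 11679 genes. The rebuilt levels and the difference test were run on simulated data. That simulation took equal groups and normal errors as given and left out genes of low mean, so it did not test these points. Calls took an adjusted p under 0.05. The members and lists were chosen with earlier results of these data known. One gene of the list of activators and inhibitors is not reported here and enters no list count. Named genes are the members, ALYREF, the measured plasminogen activator genes, the 2 largest changes per list and comparison, the 3 genes nearest each member and direct neighbours. LRP1, VLDLR, TGFB1, FN1, JUN, FOSL2, ETV5, ELAVL1 and the markers were added outside this rule, all but the markers after their values were seen. No label says that the 2 libraries of a group came from separate cultures, so the p-values may rest on technical spread alone.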

Additional observations from a re-analysis of the deposited data

Results flagged for a closer look

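The effect of siRNA5 differed from that of siRNA8 at an adjusted p under 0.05 over all genes in 24 of the 59 measured genes of the pathway lists and in 3 of the 6 activators, receptor and inhibitors, where 32.0% of all genes were called. The values here are log2 differences, siRNA5 minus siRNA8, for called genes among ALYREF, the neighbours of PLAU and the list genes named earlier. Since members and leading genes were chosen by these same comparisons, these values are a description. PLAU had 0.56 (SE 0.098) and TFPI2 had -0.57 (SE 0.069). Among plasminogen receptors, KRT8 had -0.89 (SE 0.068), PLGRKT -0.61 (SE 0.16) and S100A10 -0.27 (SE 0.075). CTSB had -0.28 (SE 0.083), ITGB5 -0.49 (SE 0.065) and VLDLR 0.70 (SE 0.13). The metalloprotease MMP2 had -0.87 (SE 0.14) and MMP13 had 1.10 (SE 0.38). In the same list, TGFB1 had 1.31 (SE 0.0998) and FN1 had -0.997 (SE 0.113). Among RNA-binding proteins, ZFP36L1 had -0.59 (SE 0.077) and ZFP36L2 had 0.78 (SE 0.15). The neighbours of PLAU, CAMK2G and VCL, had 0.58 (SE 0.11) and -0.43 (SE 0.061). At means under 20 normalized counts, FOSB had -2.86 (SE 0.94) and SERPINB2 had a fitted -6.64 (SE 1.94). SERPINB2 had rebuilt levels of 0.476 with siRNA5 and 47.6 with siRNA8, so only siRNA8 lifts its mean above the lowest in the tables, 11.6, and its value is neither a size nor support for a difference. ALYREF itself differed by -0.47 (SE 0.13), and the part of this in the other differences was not tested.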

How the results depend on the processing

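The counts of called members against NTC, 2 of 3 with each siRNA, were the same under a threshold of 0.01, Bonferroni adjustment, a minimum mean of 50, centring on the median of all genes and a minimum change of 1.5-fold. Between the siRNAs, 1 member was called, against 0 with the minimum change of 1.5-fold and 2 with the rebuilt control variance. The pathway lists held 29 called genes with siRNA5 and 38 with siRNA8, which became 17 and 23 with Bonferroni adjustment and 7 and 15 with the minimum change, both stricter by construction. Over all genes, calls became 2233 and 1912 of 5423 and 4847 with Bonferroni adjustment, 1711 and 1466 with the minimum change, and 3739 calls between the siRNAs became 1356 and 1551 under these settings. The rebuilt control variance raised them to 5638 of 11679 genes. Centring moved no member's fold change by over 0.01. No paired analysis was possible because the tables hold no values per library; leaving out a replicate and another normalization of counts were not run for the same reason. SERPINB2, SERPINI1 and FOSB are limited by means under 20 normalized counts.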
